A study of Rattus norvegicus with 458 samples.

Results

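The glandular stomach was compared with the duodenum, the first segment of the small intestine that follows it, in 6 Sprague Dawley rats by small RNA sequencing. The comparison used 12 libraries, 1 of each tissue from rats 3, 5, 6, 8, 9 and 10, of the 20 libraries with either tissue label and the 215 libraries of the series. The rats were 12 to 13 weeks of age, rats 3, 5 and 6 were male and rats 8, 9 and 10 female, and no treatment is listed for either tissue. The stomach was collected with the adjoining duodenum attached and whole pieces of wall were used, so that epithelium, muscle, vessels and immune cells are mixed in every library. The RNA of the duodenum of rats 5, 6 and 9 was a second extract of the same homogenate. The duodenum libraries of rats 2, 4, 7 and 11 were left out because their profiles lay closest to the cerebrum, the hippocampus or the adrenal (r between 0.921 and 0.980, against 0.569 to 0.728 with the other duodenum libraries), and the stomach libraries of these rats were left out with them. Of the duodenum libraries kept, that of rat 10 had a median r of 0.9488 with the jejunum and of 0.9456 with all other libraries labelled duodenum. The latter median includes the libraries left out, which lowers it, so these values do not rank the tissues for rat 10.

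A miRNA is cut from a hairpin precursor as a short strand that guides silencing of mRNAs through pairing of its seed, bases 2 to 8 from the 5′ end. miR-192, miR-194 and miR-215 are known as miRNAs of the intestinal epithelium. miR-143 and miR-145 are known from smooth muscle, which forms the outer wall of both organs, and miR-205 is known from squamous and basal epithelium such as that of the rodent forestomach.

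The sequences that the main differences turn on are shown with the seed in capitals, as given by RefSeq on the rat build GRCr8, and read 5′ to 3′. The first 3 are the epithelial miRNAs of the intestine, the next 2 those of smooth muscle, and the last 3 those of forestomach epithelium and pancreas.
miR-215: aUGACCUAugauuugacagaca
miR-192-5p: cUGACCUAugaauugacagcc
miR-194-5p: uGUAACAGcaacuccaugugga
miR-143-3p: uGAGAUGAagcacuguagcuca
miR-145-5p: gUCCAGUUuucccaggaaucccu
miR-205: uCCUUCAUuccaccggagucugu
miR-216a-5p: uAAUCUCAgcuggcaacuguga
miR-217-5p: uACUGCAUcaggaacugacugg
miR-215 and miR-192-5p share the seed UGACCUA, while miR-194-5p has another. The miR-215 hairpin lies on chromosome 13 (chr13:99382990-99383086, plus strand) with 191 bases between it and a first copy of miR-194. The miR-192 hairpin lies on chromosome 1 (chr1:212994209-212994318, plus strand) with 100 bases between it and the second copy, so that reads of miR-194-5p cannot be assigned to either copy. miR-143 and miR-145 lie 1278 bases apart on the minus strand of chromosome 18, and miR-216a and miR-217 lie 7302 bases apart on the plus strand of chromosome 14. For miR-215, miR-192-5p, miR-194-5p and miR-145-5p the most counted sequence of these libraries was the RefSeq sequence itself.

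Levels are given as scaled CPM, the counts of a name per 1000000 reads after upper quartile scaling over the 12 libraries. This scaling was used because an offset on the upper quartile is among the methods of the paper. A single miRNA filled most of each stomach library. miR-143-3p took 74.2% ± 4.43 (SD, n = 6) of the reads of the glandular stomach and 27.7% ± 5.64 (SD, n = 6) of those of the duodenum. Scaled CPM of miR-143-3p can therefore be larger than the name's true share of a library, and they compare a name between libraries but are no share of a library. Library totals were 5175918 to 17725805 counts in the glandular stomach and 1257344 to 6520992 in the duodenum, and the stomach library was the deeper of the 2 in every rat (mean difference in log10 total 0.397, exact permutation test over sign flips, two-sided p = 0.03125, n = 6). The RNA integrity number (RIN) was also higher in the stomach of every rat, with a mean of 8.42 ± 0.585 against 7.17 ± 0.314 (SD, n = 6 each; exact permutation p = 0.03125, two-sided, the smallest that 6 pairs allow). The part of depth and RNA integrity in the differences between the tissues was not tested.

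Several libraries stood apart from their group. The stomach library of rat 3 held intestinal names, with miR-215 at 19860 scaled CPM where the other 5 stomach libraries had 11.1 to 57.7, and it also held 107 scaled CPM of miR-122-5p, a liver miRNA, where the other 11 libraries had 0 to 3.25. Both runs of that library carried them, with miR-215 at 12480 and 11250 CPM of the run, without scaling. The stomach library of rat 10 held the pancreatic names miR-216a-5p at 110.1 and miR-217-5p at 241.4 scaled CPM, again in both runs, where the other 5 stomach libraries had at most 0.372 and 0.841. The stomach libraries of rats 5 and 9 were high in names of striated muscle, with miR-206-3p, a miRNA of skeletal muscle, at 71.1 and 34.2 scaled CPM against 0.273 to 6.91 in the other 4. The duodenum library of rat 8 had reads with an extra base at the 5′ end, described with the isomiRs. Counts are therefore also given without rats 3, 5 and 10, or without rat 8. The set without rats 3, 5 and 10 still holds the stomach library of rat 9 and the duodenum library of rat 8. The 3 rats without a second extract of the duodenum were rats 3, 8 and 10. In fits split by extract, the extraction therefore cannot be told apart from the libraries of these rats described here.

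Of 453 names tested, 159 (35.1%) passed the threshold of an adjusted p of 0.05 in the edgeR quasi-likelihood test with the rat as a block. They were 86 names (19.0%) higher in the glandular stomach and 73 (16.1%) higher in the duodenum. The counts given below for lists of names are to be read against these shares. The median log2 difference over all names tested, stomach minus duodenum, was -0.01. The libraries of the tissues did not overlap for 105 names (23.2%). With library totals in place of upper quartile scaling the median shifted by -0.51 and the split became 37 higher in the stomach and 158 higher in the duodenum. Without rats 3, 5 and 10 the split was 41 and 47, and 84 of these 88 names had been called in the same direction with all 6 rats.

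**Figure D1:**
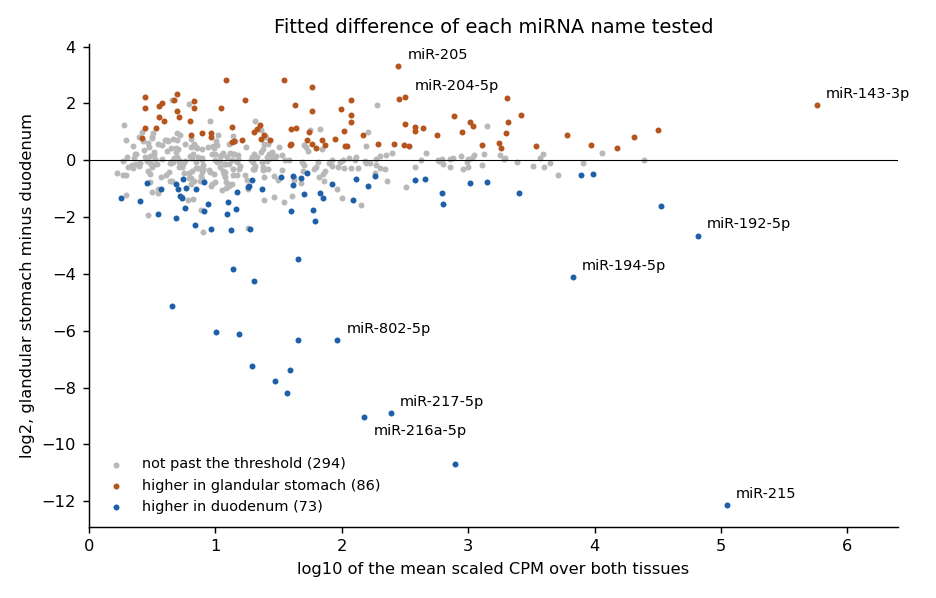
Fitted log2 difference of each of the 453 names tested (vertical axis, positive when higher in the glandular stomach) against the log10 of the mean scaled CPM over both tissues (horizontal axis). The 86 names higher in the stomach reach a log2 difference of 3.32 (miR-205), while those higher in the duodenum reach -12.13 (miR-215).

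The intestinal epithelial names were higher in the duodenum, and miR-215 had the largest fitted difference of all names tested. In the glandular stomach miR-215 had a lowest, median and highest level of 11.1, 41.1 and 19860 scaled CPM, the highest being rat 3. In the duodenum it had 171700, 229400 and 266000 scaled CPM, so that the tissues did not overlap. The duodenum was 4612 to 15490 times higher than the stomach of the same rat in the 5 rats other than rat 3, and 12.0 times higher in rat 3. The fitted log2 difference was -12.13 (SE 1.75, adjusted p = 0.00195), and it was -12.69 without rat 3 and -6.04 without the replicate block for the rat (adjusted p = 0.0287). The call was lost in the 3 rats without a second extract (adjusted p = 0.105). miR-215 took 26.2% ± 4.37 (SD, n = 6) of all duodenum reads.

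miR-192-5p differed far less than miR-215, although both have the same seed. Its levels were 13060, 15900 and 40630 scaled CPM (lowest, median, highest) in the stomach and 96260, 109900 and 136700 in the duodenum. The 5 stomach libraries other than that of rat 3 held 13060 to 18300 scaled CPM of miR-192-5p, while they held 11.1 to 57.7 of miR-215. The duodenum was 2.75 times higher in rat 3 and 6.09 to 10.3 times higher in the other rats (log2 difference -2.66, SE 0.251, adjusted p = 0.000407). In each rat the difference of miR-215 was larger than that of miR-192-5p.

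miR-194-5p, whose sequence lies at both loci, differed by less than miR-215 and by more than miR-192-5p. It had 472, 584 and 2356 scaled CPM in the stomach and 10560, 12140 and 15330 in the duodenum, with a log2 difference of -4.11 (SE 0.355, adjusted p = 0.000407). The highest stomach value was again that of rat 3. All 7 names tested from the miR-192, miR-194 and miR-215 stems passed the threshold and were higher in the duodenum, with a median log2 difference of -4.11. All 7 also passed without rats 3, 5 and 10 and in the 3 rats with a second extract, and 3 of 7 passed in the 3 rats without one. Their summed level was 13590 to 62880 scaled CPM in the stomach and 280400 to 395600 in the duodenum.

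miR-802-5p, which the intestine and the pancreas of these rats both held, was higher in the duodenum. It had 0.381, 0.859 and 31.1 scaled CPM in the stomach and 141.2, 173.7 and 211.8 in the duodenum (log2 difference -6.34, SE 1.10, adjusted p = 0.00411). The 2 highest stomach libraries were those of rat 3 and of rat 10, at 31.1 and 9.00 scaled CPM. Its median was 203.6 scaled CPM in the jejunum and 207.6 in the pancreas, where 4 of 6 rats had more than in the duodenum, and the part of the pancreas in the difference was not tested. The call was lost in the 3 rats without a second extract (adjusted p = 0.0630). The other strand, miR-802-3p, differed by a log2 of -6.34 as well (adjusted p = 0.00223).

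Along the gut of the same 6 rats, the stomach and duodenum libraries fell on either side of a step for miR-215. The non-glandular stomach had a median of 61.8 scaled CPM of miR-215, close to the 41.1 of the glandular stomach, and the jejunum and ileum had medians of 509600 and 241000. The duodenum was below the jejunum in all 6 rats and below the ileum in 3 of 6. For miR-192-5p the rise came in steps. Its median was 1662 scaled CPM in the non-glandular stomach, 15900 in the glandular stomach, 109900 in the duodenum and 247700 in the jejunum, and the duodenum was below both the jejunum and the ileum in all 6 rats. These levels of other tissues are descriptions on the same scale and were not tested.

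**Figure D2:**
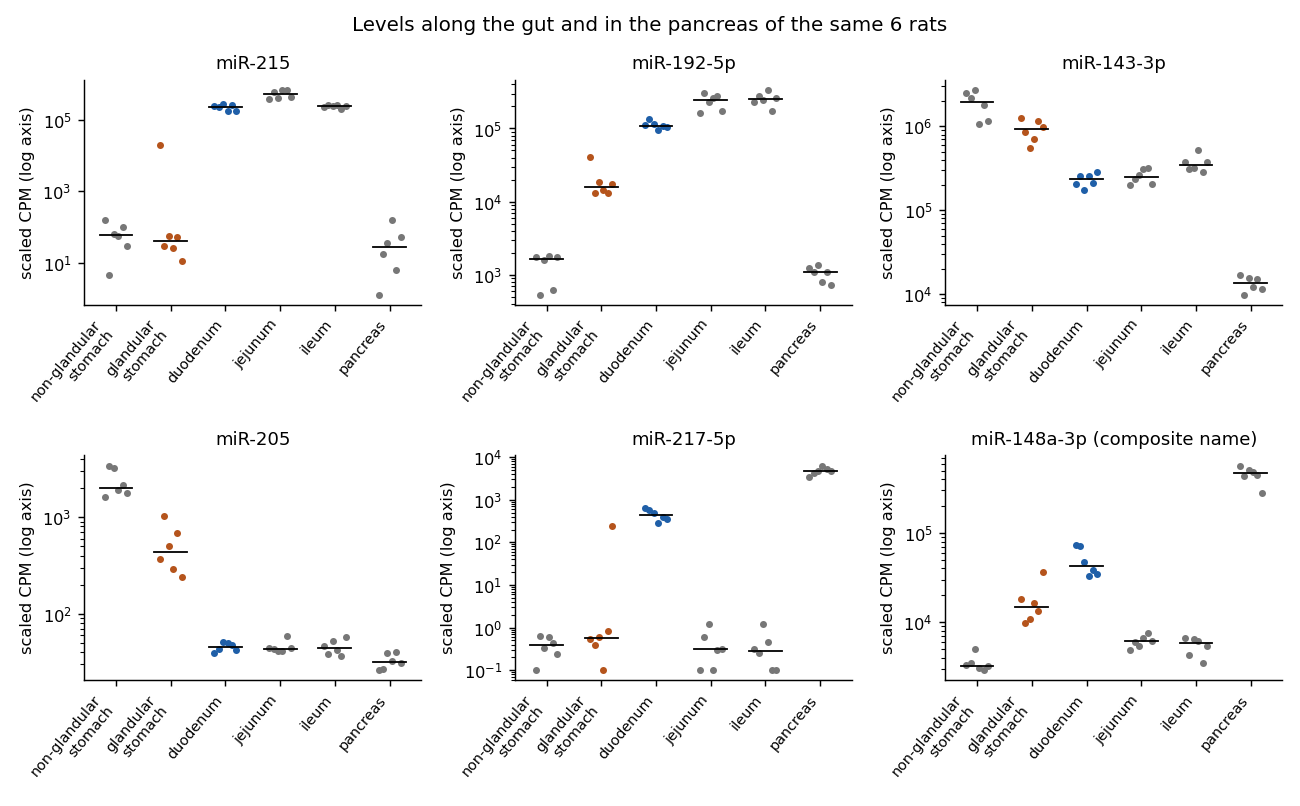
Scaled CPM (log axes) of 6 names in the non-glandular stomach, glandular stomach, duodenum, jejunum, ileum and pancreas, with 1 point for each of 6 rats, the median as a line and values under 0.1 drawn at 0.1. miR-215 steps from a median of 41.1 in the glandular stomach to 229400 in the duodenum, and miR-217-5p from 0.574 to 439, with single stomach libraries (rats 3 and 10) in between.

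Names of the exocrine pancreas were present in every duodenum library. miR-216a, miR-216b and miR-217 are known as miRNAs of pancreatic acinar cells, and all 6 names tested of these stems passed the threshold and were higher in the duodenum, while none of the 6 passed in the 3 rats without a second extract. miR-217-5p had 281.6, 439 and 628 scaled CPM in the duodenum. In the glandular stomach it had 0 to 0.841 scaled CPM in 5 rats, which is 0 to 6 counts a library, and 241.4 in rat 10 (adjusted p = 0.00669). miR-216a-5p had 159.5, 267 and 472 scaled CPM in the duodenum and 0 to 2 counts in each stomach library other than that of rat 10 (adjusted p = 0.00676). miR-216b-5p had 43.8 to 99.1 scaled CPM in the duodenum and was at 0 counts in 5 of 6 stomach libraries. No fold is given for these names, since most stomach libraries held few or no counts of them. The calls of miR-216a-5p and miR-217-5p held in each fit without 1 rat and were lost without the replicate block (adjusted p = 0.0678 and 0.109) and in the 3 rats without a second extract (adjusted p = 0.183 and 0.195).

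The jejunum and ileum of the same rats held almost none of these names. miR-217-5p reached at most 1.19 scaled CPM in the jejunum and 1.22 in the ileum, and the pancreas had 3505 to 6306. The level in the duodenum was 4.47% to 17.9% of that in the pancreas of the same rat for miR-217-5p and 3.28% to 12.8% for miR-216a-5p. The composite name that holds miR-148a-3p, which is abundant in the pancreas, moved the same way, at 6.79% to 16.5%. It had 9654, 14660 and 36220 scaled CPM in the glandular stomach, with rat 10 highest, and 32870, 43010 and 72780 in the duodenum, against 4904 to 7570 in the jejunum and 279800 to 568000 in the pancreas (log2 difference -1.60, SE 0.375, adjusted p = 0.0139). Its stomach and duodenum levels overlapped only through rat 10, whose duodenum held 34460 scaled CPM, less than its stomach. The call of this composite was lost in the 3 rats without a second extract. A pancreatic share of the duodenum libraries and expression by the duodenum itself cannot be told apart in these whole tissue pieces.

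In the glandular stomach, names of smooth muscle were higher. miR-143-3p, the name with the highest mean share of reads in both tissues, had 559200, 918100 and 1253000 scaled CPM in the stomach and 173300, 233100 and 286000 in the duodenum (log2 difference 1.95, SE 0.196, adjusted p = 0.000446). As a share of reads it was 68.0% to 79.5% of each stomach library and 21.1% to 35.9% of each duodenum library, and miR-215 took more reads than it in 3 of 6 duodenum libraries. miR-145-5p, its neighbour, had 2245, 3877 and 6200 scaled CPM in the stomach and 848, 1278 and 1489 in the duodenum (log2 difference 1.59, SE 0.294, adjusted p = 0.00596). All 4 names tested of the 2 stems passed the threshold and were higher in the stomach, while 3 of 4 did so with library totals and 3 of 4 without rats 3, 5 and 10. In the 3 rats without a second extract and in the 3 rats with one it was also 3 of 4, and the call of miR-143-3p was lost in the rats without one. The non-glandular stomach had a higher median of miR-143-3p still, 1979000 scaled CPM, and in these bulk samples more muscle cells and more miRNA per cell cannot be told apart. miR-490-3p was also higher in the stomach, at 142.5, 182.6 and 277.9 scaled CPM against 31.7, 41.7 and 61.9 (log2 difference 2.13, SE 0.207, adjusted p = 0.000417).

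miR-205 had the largest difference of all names higher in the glandular stomach under the naming rule. It had 241.7, 433 and 1017 scaled CPM in the stomach and 38.9, 45.6 and 51.0 in the duodenum, with a log2 difference of 3.32 (SE 0.305, adjusted p = 0.000407). The non-glandular stomach of the same rats had 1628 to 3407 scaled CPM, above all 6 glandular libraries, and the jejunum and ileum had medians of 43.6 and 44.6, near that of the duodenum. The 2 glandular libraries with the most miR-205, those of rats 5 and 9 with 1017 and 679 scaled CPM, were also the 2 with the most miR-206-3p. The other 2 names of the squamous list, miR-203a-3p and miR-203b-3p, were higher in the duodenum. miR-203a-3p had 340.9 to 1685 scaled CPM in the stomach and 992.5 to 1527 in the duodenum (log2 difference -0.79, adjusted p = 0.0258), with stomach levels on both sides of the duodenum, and its call was lost in 9 of 20 alternatives.

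Striated muscle names were higher in the stomach with a wide spread. miR-133a-3p had 948, 1707 and 10760 scaled CPM in the stomach and 317, 451 and 745 in the duodenum (log2 difference 2.18, SE 0.550, adjusted p = 0.0181). The highest values, 10760 and 4860, were those of rats 5 and 9. Without rats 3, 5 and 10, a set that keeps rat 9, the log2 difference was 1.86 (adjusted p = 0.0249). The call was lost without rat 9 (log2 difference 2.08, adjusted p = 0.0568) and in the rats without (1.38, adjusted p = 0.0551) and with (3.14, adjusted p = 0.0558) a second extract. The composite of miR-133a-3p and miR-133b-3p differed by a log2 of 2.57 (adjusted p = 0.0144), and by 1.75 (adjusted p = 0.124) without rats 3, 5 and 10. The summed level of the striated muscle list was 989 to 11190 scaled CPM in the stomach and 332.5 to 773.9 in the duodenum, and 2 of its 4 names tested passed the threshold. In the Dlk1-Dio3 cluster, a large imprinted miRNA locus, 4 of 23 names tested were higher in the stomach and none lower, a share near the 19.0% of all names tested, and 1 of 25 without rats 3, 5 and 10. miR-411-5p of this cluster had 159.8, 218.5 and 1664 scaled CPM in the stomach and 52.6, 72.4 and 90.1 in the duodenum (log2 difference 2.16, SE 0.516, adjusted p = 0.0145). miR-127-3p of the same cluster had 6353 scaled CPM in the stomach of rat 5 and 833 to 2473 in the other rats, against 548 to 1097 in the duodenum (log2 difference 1.21, adjusted p = 0.0882), and did not pass.

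miR-204-5p, known from the retinal pigment epithelium of the eye, was higher in the glandular stomach than in each other gut tissue of these rats by median. It had 381.6, 487 and 746 scaled CPM in the stomach and 75.3, 118.5 and 144.9 in the duodenum (log2 difference 2.22, SE 0.232, adjusted p = 0.000468). The medians in the non-glandular stomach, jejunum, ileum and pancreas were 230.2, 58.8, 100.3 and 78.0 scaled CPM. Its call held in all 20 alternatives, as did those of miR-205 and miR-490-3p. Of the list of single miRNAs of the gut, which holds miR-204 and miR-802, 1 of 10 names was higher in the stomach and 2 in the duodenum. Over all names tested these shares were 19.0% and 16.1%.

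**Figure D3:**
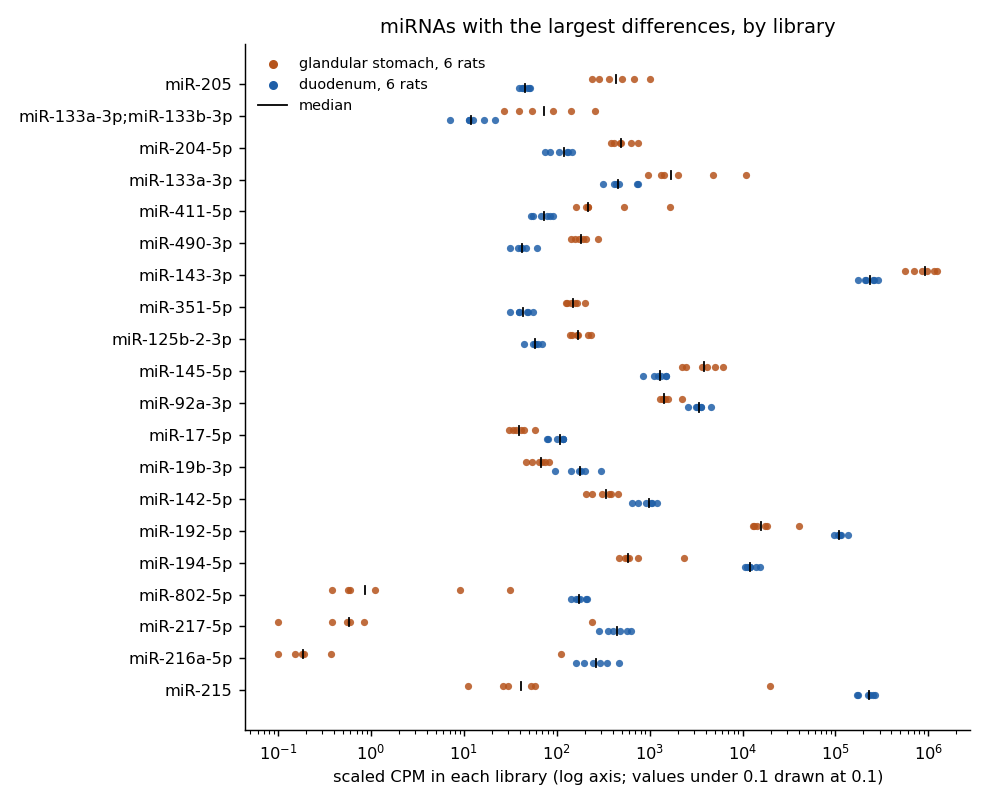
Scaled CPM (log axis, values under 0.1 drawn at 0.1) of 20 names, the 10 largest differences in each direction among known names past the threshold with no overlap and a mean of at least 100, with 1 point a library, 6 rats in each tissue and the median as a black line. The stomach libraries of rats 3 and 10 stand nearest to the duodenum for miR-215 (19860) and miR-217-5p (241.4).

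Of the miR-99, miR-100 and miR-125 families, 10 of 11 names tested were higher in the stomach and none in the duodenum, with a median log2 difference of 1.17, and 7 of 11 with library totals. Of these, miR-99b-5p had 2657 to 3369 scaled CPM in the stomach and 1009 to 1447 in the duodenum (log2 difference 1.36, SE 0.0959, adjusted p = 0.000232), and miR-125b-5p had 1183 to 1855 against 512 to 717 (log2 difference 1.35, SE 0.0918, adjusted p = 0.000232). miR-125b-2-3p, from the other strand of a miR-125b hairpin, had 138.5 to 231.9 against 44.3 to 69.2 (log2 difference 1.60, adjusted p = 0.000407). Without rats 3, 5 and 10 the count was 6 of 11.

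The mesenchymal names miR-199a-3p, miR-199a-5p and miR-214-3p were all higher in the stomach, 3 of 3 tested, but none of the 3 passed with library totals. miR-214-3p, for instance, had 66.5 to 93.5 scaled CPM in the stomach and 32.7 to 41.5 in the duodenum (log2 difference 1.00, SE 0.147, adjusted p = 0.00207). Of the miR-23, miR-27 and miR-24 clusters, 7 of 11 names were higher in the stomach and none in the duodenum, while with library totals 5 were higher and 1 lower. miR-27a-3p, of the miR-23a cluster, differed by a log2 of 1.22 (SE 0.130, adjusted p = 0.000493), and miR-27b-3p, of the miR-23b cluster, differed by 0.42 (adjusted p = 0.0144), which turned to -0.09 with library totals, and miR-23b-3p had 600.7 to 1433 scaled CPM in the stomach and 872.7 to 1109 in the duodenum (adjusted p = 0.182). miR-351-5p, of an X-linked cluster with miR-322 and miR-450, had 126.2 to 201.3 scaled CPM in the stomach and 31.2 to 55.6 in the duodenum (log2 difference 1.82, SE 0.120, adjusted p = 0.000232), and 4 of 7 names of its cluster were higher in the stomach and none lower, against 1 of 7 with library totals.

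In the duodenum, names of the miR-17-92 cluster, known from dividing cells, were higher. Of the 13 names tested from this cluster and the related miR-106b-25 cluster, 9 were higher in the duodenum and none in the stomach, with a median log2 difference of -1.13. The count was 7 of 14 without rats 3, 5 and 10 and 13 of 13 with library totals. miR-92a-3p had 1295, 1438 and 2204 scaled CPM in the stomach and 2556, 3423 and 4587 in the duodenum (log2 difference -1.15, SE 0.127, adjusted p = 0.000530). miR-17-5p had 30.9 to 57.6 against 77.9 to 116.5 (log2 difference -1.33, SE 0.166, adjusted p = 0.00111), and miR-19b-3p 46.9 to 81.8 against 94.8 to 299.2 (log2 difference -1.41, SE 0.298, adjusted p = 0.00994). The sequences of miR-92a-3p, miR-17-5p and miR-19b-3p lie on chromosome 15 and again, unchanged, on chromosome X, so their reads cannot be assigned to the miR-17-92 cluster alone. Of the miR-106b-25 cluster, miR-106b-5p was higher in the duodenum (log2 difference -0.54, adjusted p = 0.0144), while miR-25-3p at -0.22 (adjusted p = 0.1004) and miR-93-5p at -0.25 (adjusted p = 0.0872) did not pass, and the clusters were not compared by a test.

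miR-142, a miRNA of blood cells, was higher in the duodenum on both strands. miR-142-5p had 206.3, 337 and 460 scaled CPM in the stomach and 646, 972 and 1206 in the duodenum (log2 difference -1.53, SE 0.121, adjusted p = 0.000392), and miR-142-3p differed by -1.74 (SE 0.209, adjusted p = 0.000927). The other 5 leukocyte names tested did not pass. miR-150-5p of lymphocytes had 147.2 to 232.1 scaled CPM in the stomach and 93.5 to 326.6 in the duodenum, and miR-223-3p of myeloid cells 30.6 to 69.7 and 42.2 to 85.6. The summed level of the list was 727 to 1243 scaled CPM in the stomach and 1324 to 2029 in the duodenum. The erythroid name miR-451-5p did not pass (adjusted p = 0.152), while the composite that holds miR-486-5p was higher in the stomach (log2 difference 1.55, adjusted p = 0.0282), a call lost in 7 of 20 alternatives.

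The miR-200 family, which marks epithelium in general, has 2 genomic clusters. All 4 names of miR-200c and miR-141, whose hairpins lie 346 bases apart on chromosome 4, were higher in the duodenum, among them miR-141-3p with 800 to 1224 scaled CPM in the stomach and 1362 to 2266 in the duodenum (log2 difference -0.77, SE 0.156, adjusted p = 0.00831) and miR-200c-3p (log2 difference -0.68, adjusted p = 0.0128). miR-141-3p had a median of 14280 scaled CPM in the pancreas of the same rats and 885.5 in the jejunum, and the part of the pancreas in the difference was not tested. No name of miR-200a, miR-200b and miR-429, on chromosome 5, passed. miR-200b-3p had 2247 to 3873 scaled CPM in the stomach and 2594 to 4422 in the duodenum (adjusted p = 0.418), and miR-429 1114 to 1683 against 921 to 1477 (adjusted p = 0.199). Without rats 3, 5 and 10 none of the 11 family names tested passed, and the difference between the clusters itself was not tested. The miR-181 family gave 5 of 8 names higher in the duodenum and none in the stomach, among them miR-181a-5p with 5604 to 7669 scaled CPM in the stomach and 8316 to 10400 in the duodenum (log2 difference -0.52, SE 0.0824, adjusted p = 0.00284).

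Other abundant names ranged from no detected difference to a log2 of 1.07. miR-10a-5p, from the HOXB cluster, had 18620 to 30010 scaled CPM in the stomach and 20010 to 33690 in the duodenum, a log2 difference of -0.00 (SE 0.101, adjusted p = 0.991). miR-10b-5p, from the HOXD cluster, was higher in the stomach by 0.90 (SE 0.125, adjusted p = 0.00178), with 5906 to 10880 against 3583 to 5629 scaled CPM, but not with library totals (0.39, adjusted p = 0.0671), where miR-10a-5p passed at -0.51 (adjusted p = 0.0150). Of the 4 HOX cluster names tested, 1 passed, with upper quartile scaling. miR-22-3p was higher in the stomach by 1.07 (SE 0.150, adjusted p = 0.00186) and miR-26a-5p by 0.80 (SE 0.0969, adjusted p = 0.000927), and with library totals by 0.55 (adjusted p = 0.0377) and 0.29 (adjusted p = 0.144). Of the let-7 family, 1 of 23 names was higher in the stomach and 1 in the duodenum, against none and 7 with library totals, and let-7f-5p had 3849 to 5300 against 3779 to 5467 scaled CPM (adjusted p = 0.565). None of the 5 miR-29 names and neither of the 2 endothelial miR-126a names passed, and miR-126a-3p had 541 to 724 against 533 to 683 scaled CPM, while with library totals both miR-126a names were higher in the duodenum. The miR-30 family gave 3 of 15 names higher in the stomach, a share near the 19.0% of all names, and none in the duodenum, against none and 4 with library totals, and the cluster of miR-183, miR-96 and miR-182 gave 2 of 4, none of which passed with library totals. In the family of miR-15, miR-16, miR-195 and miR-497, names of miR-195 and miR-497 were higher in the stomach (3 of 7) and names of miR-15b in the duodenum (2 of 7), and with library totals none was higher in the stomach. miR-375-3p, of endocrine cells, had 3215 to 5532 against 4860 to 8200 scaled CPM and did not pass (adjusted p = 0.104), while of the 2 other names of the endocrine list miR-7a-5p was higher in the stomach and miR-7a-1-3p in the duodenum, and neither passed without rats 3, 5 and 10. Of the neuronal list 2 of 6 names and of the miR-34 and miR-449 family 1 of 3 were higher in the duodenum, against 16.1% of all names tested. No neuronal name passed without rat 6, without rat 8 or in the rats without a second extract. None of either list was higher in the stomach, and miR-449a-5p, a miRNA of ciliated cells, had no more than 4.96 scaled CPM in any library. None of the 4 names tested of the miR-148 and miR-152 stems, which leave out the composite with miR-148a-3p, passed, against 2 higher in the duodenum with library totals, and no liver name reached the test.

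**Figure D4:**
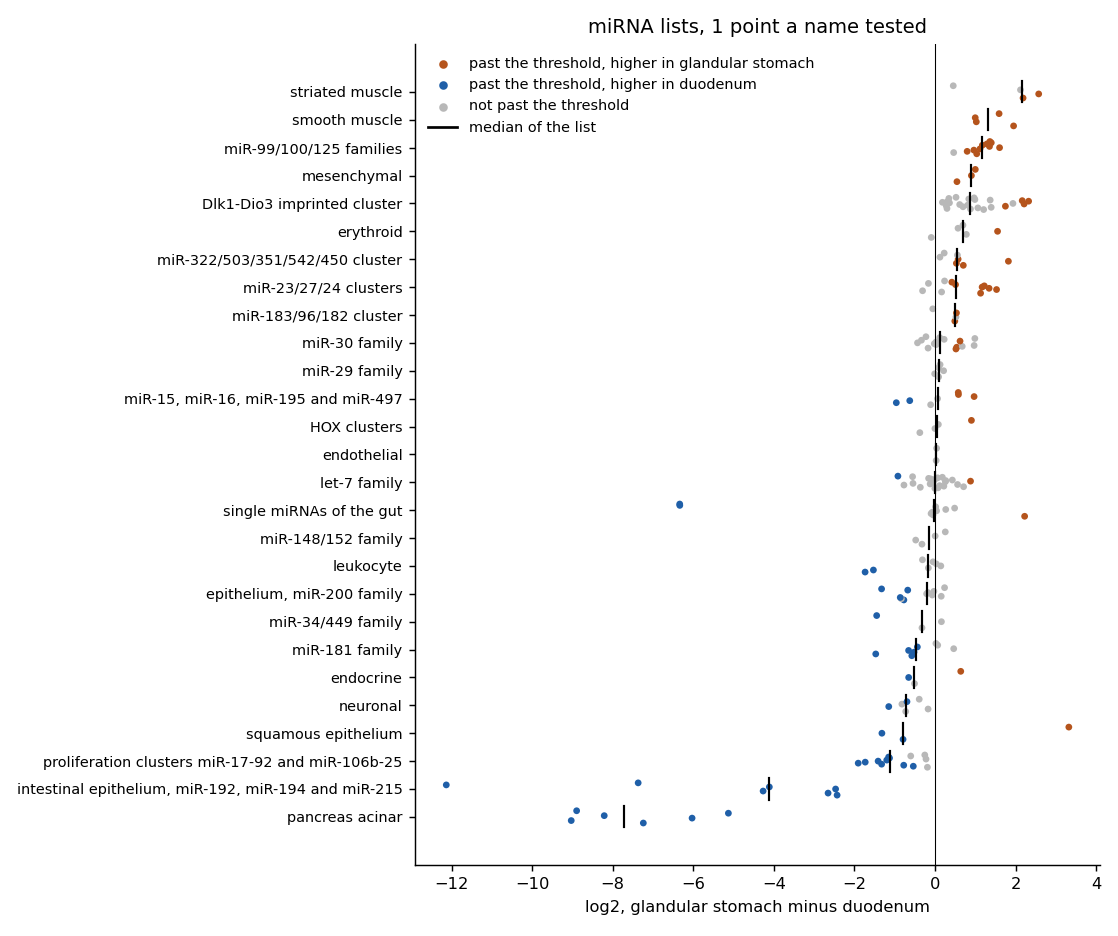
Log2 differences (horizontal axis, positive when higher in the glandular stomach) of every name tested in each list of miRNAs (rows), with the list median as a black line and names past the threshold in colour. The medians run up to 2.15 for striated muscle and down to -4.11 for the intestinal epithelium, against -0.01 over all 453 names, with the pancreas below them, whose fitted values rest on few stomach counts.

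The difference between the tissues was compared between the sexes, 3 females against 3 males. No name passed the threshold in the edgeR test of the tissue by sex interaction, 26 of 453 names had an unadjusted p under 0.05, and the smallest adjusted p was 0.473. DESeq2 called 8 names, all composites, predicted miRNAs or precursors, among them the composite with miR-148a-3p (log2 difference, females minus males, 1.51, DESeq2 adjusted p = 0.0474).

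IsomiRs are sequences of a miRNA that differ at their ends. A shift at the 5′ end moves the seed, so the share of reads that began at another base than the most counted start was compared for 82 names. In 11 of the 12 libraries the median of this share over names was 0.504% to 0.712%. In the duodenum of rat 8 it was 47.7%, and 43.2% of the reads there began 1 base earlier than usual, for all 82 names above 10%. Its runs differed, with 53.5% of such reads in the deeper run and 0.683% in the other. The extra base was G in 33.2%, T in 30.3%, C in 18.8% and A in 17.7% of these reads. With all 6 rats no name passed in limma (0 of 82, 1 with an unadjusted p under 0.05). Without rat 8, 7 of 82 names (8.54%) passed.

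Without rat 8 the start of miR-101a-3p had the smallest adjusted p, and its reads are shown with those of miR-142-5p because the start sets the seed. The most counted sequence of each start is printed with bases 2 to 8 in capitals, in the T letters of the reads.
miR-101a-3p, early start: gTACAGTActgtgataactga
miR-101a-3p, late start: tACAGTACtgtgataactgaat
miR-142-5p, early start: cCCATAAAgtagaaagcact
miR-142-5p, late start: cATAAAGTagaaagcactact
The late start of both names is that of RefSeq, and the early one lies 1 base before it for miR-101a-3p and 2 bases before it for miR-142-5p. The share of miR-101a-3p reads away from the early start was 41.2%, 42.1%, 42.2%, 41.2%, 42.3% and 45.1% in the stomach of rats 3, 5, 6, 8, 9 and 10. In the duodenum it was 64.8%, 64.1%, 64.4%, 62.8%, 60.6% and 59.7%. The value of the duodenum of rat 8 includes reads with the extra base. The other 5 duodenum libraries were above all 6 stomach libraries, and without rat 8 the log2 odds differed by -1.19 (SE 0.109, limma adjusted p = 0.00504, n = 5 pairs), while with all 6 rats they differed by -1.20 (SE 0.462, limma adjusted p = 0.640). For miR-142-5p the share was 28.4% to 35.5% in the stomach and 40.8% to 44.3% in the duodenum other than rat 8, which had 80.9% (without rat 8, log2 odds -0.66, SE 0.0942, limma adjusted p = 0.0164). miR-101b-3p shifted the other way, from 45.1% to 49.6% in the stomach to 37.5% to 43.8% in the duodenum without rat 8 (log2 odds 0.44, limma adjusted p = 0.0433). miR-30e-5p shifted this way too, from 4.918% to 5.235% in the stomach to 2.898% to 3.369% in the duodenum without rat 8. Its log2 odds were 0.71 (SE 0.0864, limma adjusted p = 0.0106). miR-27b-3p (log2 odds 0.58) and miR-378a-3p (0.43) also shifted this way, while miR-22-3p (-0.49) shifted in the direction of miR-101a-3p. The shares behind these odds were small. Without rat 8 their means in stomach and duodenum were 0.561% and 0.376% for miR-27b-3p, 6.51% and 4.90% for miR-378a-3p, and 0.219% and 0.307% for miR-22-3p. These names were chosen for the text after the values without rat 8 were seen.

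**Figure D5:**
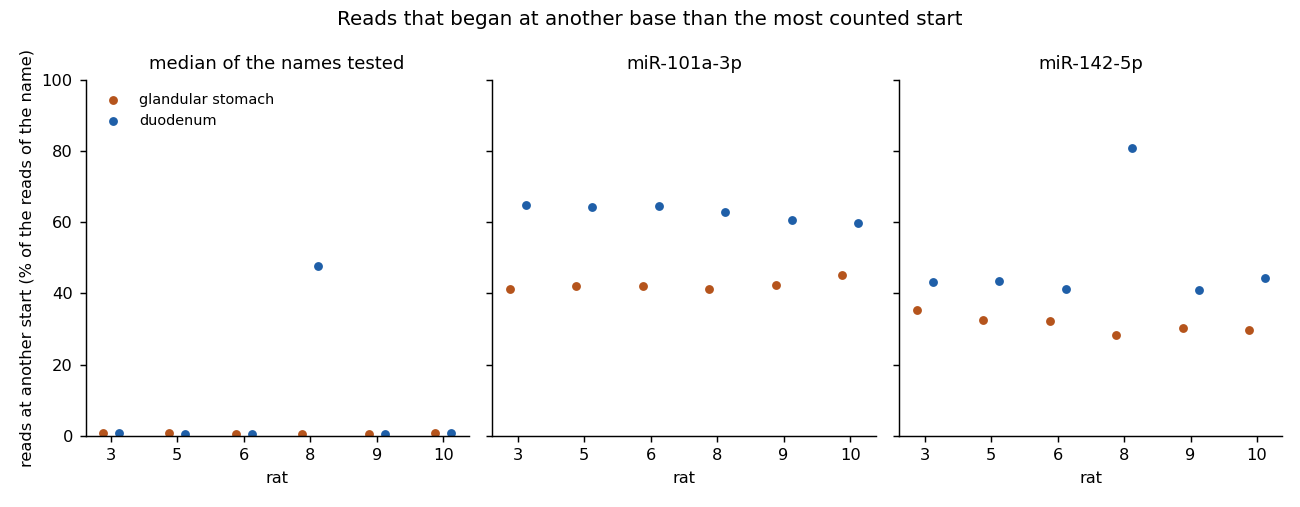
Percent of reads of a name that began at another base than its most counted start (vertical axis) by rat, for the median of 82 names, miR-101a-3p and miR-142-5p, with 1 point a library. The duodenum of rat 8 stands apart at a median of 47.7%, and for miR-101a-3p the duodenum lies at 59.7% to 64.8% and the stomach at 41.2% to 45.1%.

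Reads of some names were slightly shorter in the glandular stomach. The mean read length passed the threshold in limma for 10 of 82 names (12.2%), all shorter in the stomach, and for 20 of 82 (24.4%) without rat 8. miR-30d-5p had a mean of 22.7 bases in the stomach and 23.1 in the duodenum, a difference of -0.39 bases (SE 0.078, limma adjusted p = 3.8e-05), and -0.33 without rat 8 (limma adjusted p = 0.00861). miR-93-5p differed by -0.39 bases (limma adjusted p = 3.8e-05) and by -0.29 without rat 8 (limma adjusted p = 0.0113). miR-425-5p differed by -0.37 (limma adjusted p = 5.5e-05) and by -0.30 without rat 8 (limma adjusted p = 0.0286). With all 6 rats limma gave every name the same SE, so those p values rest on a spread pooled over names. In the 3 rats without a second extract, rat 8 among them, no name passed, and in the 3 rats with one 18 did. RIN and depth moved with the tissue in every rat, and their part in the lengths was not tested.

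The 2 arms of a hairpin were compared as the reads of the 5p arm over those of the 3p arm, which does not depend on library scaling. Of 30 pairs, 9 (30.0%) passed the threshold in limma. miR-143 had 5269 to 7644 reads of the 3p arm for 1 of the 5p arm in the stomach and 1964 to 5628 in the duodenum (log2 difference of 5p over 3p -0.93, SE 0.184, limma adjusted p = 0.00408), with rat 8 the highest of the duodenum. miR-30d had 129 to 166.5 reads of the 5p arm for 1 of the 3p arm in the stomach and 83.2 to 107 in the duodenum (log2 difference 0.57, SE 0.118, limma adjusted p = 0.00408). miR-181c had 15.7 to 18.2 reads of the 5p arm for 1 of the 3p arm in the stomach and 9.89 to 14.4 in the duodenum (log2 difference 0.51, SE 0.120, limma adjusted p = 0.00662), with no overlap. let-7b, with the same adjusted p as miR-181c, had 17.2 to 29.3 reads of the 5p arm for 1 of the 3p arm in the stomach and 23.0 to 49.0 in the duodenum (log2 difference -0.68, SE 0.162). The more counted arm took the larger part in the stomach for 6 of the 9 pairs and in the duodenum for let-7b, miR-872 and miR-30e.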

How the data were processed

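The authors trimmed reads with cutadapt 1.4.1 (per the submitters' processing notes), dropped short reads and counted the rest against miRBase with miRDeep2. The deposited tables hold these raw counts per miRNA name and per isomiR sequence for each of 458 runs, with no normalization. Some names are composites of several miRNAs, and predicted miRNAs and precursors are listed beside known names.

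Runs were summed per library, and 2 runs of a lane deposited in duplicate were set aside. Names were kept by edgeR's filterByExpr and tested with edgeR 4.0.16 (R 4.3.3; upper quartile scaling, quasi-likelihood F test, the rat as a block, Benjamini-Hochberg adjustment, threshold 0.05). The SE is the log2 difference over the root of F. Libraries of a rat come from the same animal, so they were paired, although the deviations of a rat's stomach and duodenum from their tissue means correlated at only -0.154 to 0.311. Starts (log2 odds), mean lengths and arm ratios of isomiR counts were tested with limma 3.58.1, also paired, for names with at least 200 reads, or arms with at least 20, in every library, with 0.5 reads added. DESeq2 1.42.0, other scalings and left-out rats were alternatives. On simulated counts 200 names were changed by a log2 of 2, and the filter then kept 430 names. Of the changed names kept edgeR recovered 97.9%, with 15 calls among the unchanged names. The simulation gave all names 1 dispersion and held no rat effect and no outlying library, unlike the data.

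Named miRNAs are the 2 markers, the 10 largest differences in each direction (past the threshold, no overlap, a mean of at least 100 scaled CPM, known names), the 5 most counted in each tissue, the most abundant members of each list and, for isomiRs and arms, the smallest adjusted p. Members and lists were chosen with earlier results of these data known. The p values measure the spread between these rats, and floors and counts cover counting error only, since reads carry no molecular identifiers. Sequences are from RefSeq (GRCr8).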

Additional observations from a re-analysis of the deposited data

Results flagged for a closer look

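A library was listed here when it lay far from the other 5 of its tissue (Dixon's test at the 95% level), which chance does in about 1 in 20 groups. Of 186 groups tested, 17 were listed, 7 of them from the stomach of rat 10, 6 from the stomach of rat 3, 3 from the duodenum of rat 8 and 1 from the duodenum of rat 5.

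The stomach of rat 3 had 19860 scaled CPM of miR-215 (the others 11.1 to 57.7), 40630 of miR-192-5p (13060 to 18300), 2356 of miR-194-5p (472 to 750), 2204 of miR-92a-3p (1295 to 1563) and 93.5 of miR-214-3p (66.5 to 71.1), and a library total of 17725805 counts (5175918 to 6323081). As a share of the duodenum of the same rat, these were 8.36% for miR-215, 36.4% for miR-192-5p and 19.4% for miR-194-5p.

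The stomach of rat 10 had 110.1 scaled CPM of miR-216a-5p (the others 0 to 0.372), 241.4 of miR-217-5p (0 to 0.841), 32.0 of miR-216b-5p (all others 0), 5300 of let-7f-5p (3849 to 4295), 2868 of let-7a-5p (1713 to 1940) and 1433 of miR-23b-3p (601 to 803), and a RIN of 7.3 (8.4 to 8.9). As a share of the pancreas of the same rat, miR-216a-5p was 4.18% and miR-217-5p 5.13%.

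The duodenum of rat 8 had a median of 47.7% of reads at another start (the others 0.504% to 0.680%), a median read length of 22.34 bases (21.88 to 21.97) and 1097 scaled CPM of miR-127-3p (548 to 682). The duodenum of rat 5 had 5629 scaled CPM of miR-10b-5p (3583 to 4018).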

How the results depend on the processing

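The 159 names past the threshold became 172 without the replicate block (the pairing by rat), of which 150 were shared, and 137 to 149 when 1 rat was left out. The count moved by more than 1.5 times in some settings, which also changed the number of names tested from 453. It was 25 of 431 with all 10 rats as labelled and 87 of 233 with the flow cell common to all libraries. Of these 87 names, 82 had been called in the same direction in the main fit. The count was 44 of 484 in the rats without and 97 of 450 in the rats with a second extract of the duodenum. Without rats 3, 5 and 10, a set chosen after seeing the data, it was 88 of 463. TMM gave 169, DESeq2 size factors 159, DESeq2 196 and library totals 195, all of 453 names. No filter on low counts gave 222 of 3144 names. Of these 222, 168 were higher in the stomach and 54 in the duodenum. The sex interaction had 0 calls, 8 with DESeq2 and 17 with no filter, among them miR-215 and 4 names of miR-216a and miR-216b, which the stomachs of male rat 3 and female rat 10 carried. Starts had 0 calls, 5 with the common flow cell and 0 to 7 when 1 rat was left out. Lengths had 10 calls, 2 with all 10 rats, 0 and 18 in the rats without and with a second extract, and 5 to 20 when 1 rat was left out, with 5 without rat 5 and 20 without rat 8. Arms had 9 calls, 5 with a higher read minimum, 1 with all 10 rats, 3 with the common flow cell, 3 and 1 in the rats without and with a second extract, and 4 to 8 when 1 rat was left out, with 4 without rat 3 and without rat 10. The difference in RIN was 1.1 to 1.44 and that in log10 total 0.349 to 0.437 when 1 rat was left out, where 5 pairs allow no p below 0.0625. Of the named miRNAs past the threshold in either fit, a sign changed with all 10 rats for the miR-148a-3p composite (0.33), miR-141-3p (1.48), miR-7a-5p (-0.24) and miR-203a-3p (1.34), with library totals for miR-126a-5p (-0.47), miR-126a-3p (-0.48), miR-27b-3p (-0.090) and miR-182 (-0.019), and with no filter for miR-181a-5p (0.12). The cause was not tested, other than that the 10 rats add the 4 libraries with another organ's profile. Depth limited the duodenum more than the stomach, and 3 counts in its shallowest library are a share of 0.000239%.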
